A study of Mus musculus with 16 samples.

Results

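MicroRNA (miRNA) precursor rows were examined in the small non-coding RNA (ncRNA) profile of the mouse prefrontal cortex, next to the rows of the mature miRNAs cut from the same hairpins. The table names a precursor in lower case (mir-132) and its mature forms with a capital R and an arm (miR-132-3p). Of 18488 features in all, 715 carried a precursor name, and 500 of these had a family number under 5000. Members were chosen by their level, as the 123 of these rows with a mean of at least 20 normalised counts over the 16 libraries, so that their levels are a description and were not tested. All 123 members had at least 1 mature row of the same name. Members and their mature rows together held 47.6% of the miRNA signal of the table.

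In animals, most miRNAs are transcribed as long primary transcripts from which the nuclease Drosha cuts a hairpin, the precursor. Dicer then removes the loop, and 1 strand of the duplex is usually kept in an Argonaute protein, where its seed near the 5′ end pairs with target mRNAs. The strand from the left side of the hairpin is called 5p and that from the right side 3p. Several brain miRNAs, among them miR-124, miR-9 and miR-128, are made from more than 1 locus, each with its own hairpin but with the same main mature form.

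The libraries came from 8 PS19+/- mice and 8 wild-type (WT) littermates. PS19+/- mice are heterozygous for a mutant human MAPT transgene, the gene of the microtubule protein tau, under the prion protein (Prnp) promoter on a mixed C57BL/6 and C3H background, and they model tauopathy by overexpression. All mice were adult and under a year old, and both sexes were used in each genotype according to the methods of the study. RNA was taken from whole tissue, so fewer cells of a type and less RNA per cell cannot be told apart, and the transgene itself was not among the ncRNA features, so the genotype labels could not be checked here. Recovered reads ran from 13.2 M to 23.1 M per library, and every member had at least 5 reads in every library. Neuronal marker miRNAs summed to between 302404 and 1042980 normalised counts in PS19 and between 346910 and 968084 in WT, while myeloid marker miRNAs summed to at most 15.7 in any library. The largest neuronal marker was miR-128-3p, with a mean of 486403, against 11714 for miR-124-3p. In the other lists the highest sums were 61634 (vascular), 52341 (oligodendrocyte), 14631 (muscle), 2108 (epithelium), 1518 (red blood cell) and 653.5 (liver). Library codes began with G in all 8 PS19 libraries but in only 2 of the WT ones, the rest of which began with F (4) or A (2), so code letter and genotype cannot be fully told apart.

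Hairpins are shown first for 3 sets of sister loci, because their precursor rows either lay within a few percent of each other (miR-9) or differed in 1 direction in every library (miR-128 and miR-218). Sequences are from RefSeq on GRCm38.p6, in which 122 members matched a gene and 107 had a hairpin, and capitals mark the annotated mature arms. The miR-9 loci lie at chr3:88215598-88215686, chr13:83738814-83738885 and chr7:79505264-79505353, all on the plus strand. The miR-128 loci lie at chr1:128202361-128202430 on the plus strand and chr9:112118636-112118711 on the minus strand. The miR-218 loci lie at chr5:48223942-48224051 and chr11:35616816-35616925, both on the plus strand.
mir-9-1: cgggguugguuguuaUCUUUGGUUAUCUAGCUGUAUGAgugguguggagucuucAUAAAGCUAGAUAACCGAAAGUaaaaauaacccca
mir-9-2: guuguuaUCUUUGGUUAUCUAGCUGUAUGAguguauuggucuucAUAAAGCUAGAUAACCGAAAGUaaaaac
mir-9-3: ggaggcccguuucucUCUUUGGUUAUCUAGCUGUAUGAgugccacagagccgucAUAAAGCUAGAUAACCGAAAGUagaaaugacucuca
mir-128-1: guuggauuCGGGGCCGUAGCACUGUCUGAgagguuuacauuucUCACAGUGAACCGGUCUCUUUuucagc
mir-128-2: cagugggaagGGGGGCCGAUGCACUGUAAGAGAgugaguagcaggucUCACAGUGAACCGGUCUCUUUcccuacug
mir-218-1: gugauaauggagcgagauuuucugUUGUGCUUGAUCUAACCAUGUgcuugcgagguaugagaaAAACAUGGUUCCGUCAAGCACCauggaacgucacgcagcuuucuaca
mir-218-2: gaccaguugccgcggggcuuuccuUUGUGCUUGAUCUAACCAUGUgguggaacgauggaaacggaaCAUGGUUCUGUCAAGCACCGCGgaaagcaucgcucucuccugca

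The next hairpins stood at the ends of the range of precursor over mature level, or differed in it although their mature forms are alike. mir-101a (chr4:101346945-101347027, minus strand) and mir-101b (chr19:29135279-29135375, plus strand) are relatives, and the annotated miR-101b-3p starts 1 base before the start of miR-101a-3p and has 19 bases against 21. mir-125a (chr17:17830812-17830879, plus strand) had the lowest ratio. mir-431 (chr12:109590447-109590537) and mir-136 (chr12:109595327-109595388), both on the plus strand of an imprinted region, were above their mature rows, as was mir-142a (chr11:87756864-87756927, plus strand).
mir-101a: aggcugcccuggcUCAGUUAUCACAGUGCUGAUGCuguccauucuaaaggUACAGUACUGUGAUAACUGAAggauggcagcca
mir-101b: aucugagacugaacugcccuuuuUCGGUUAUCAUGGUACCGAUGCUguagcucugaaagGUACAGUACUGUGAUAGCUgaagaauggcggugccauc
mir-125a: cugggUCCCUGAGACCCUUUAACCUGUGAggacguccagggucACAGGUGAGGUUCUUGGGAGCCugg
mir-431: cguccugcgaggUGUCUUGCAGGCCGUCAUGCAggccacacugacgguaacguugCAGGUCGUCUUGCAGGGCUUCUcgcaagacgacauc
mir-136: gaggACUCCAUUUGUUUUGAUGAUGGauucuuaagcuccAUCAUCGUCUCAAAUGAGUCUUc
mir-142a: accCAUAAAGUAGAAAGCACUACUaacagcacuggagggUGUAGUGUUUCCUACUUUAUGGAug

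The mature forms of the miR-101 pair are given with the seed, bases 2 to 8, in capitals, because the shifted start gives each a seed of its own. Of the other forms named below, miR-132-3p and miR-382-5p belong to members whose precursor to mature ratio is described by genotype.
miR-101a-3p: uACAGUACugugauaacugaa
miR-101b-3p: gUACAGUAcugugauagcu
miR-132-3p: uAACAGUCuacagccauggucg
miR-382-5p: gAAGUUGUucgugguggauucg

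Levels of the members spanned 20.2 to 5555 normalised counts, with a median of 112.4. These are read counts divided by 1 size factor per library and not by length, so a level compares a row with itself across libraries more directly than with another row. Just above the threshold lay mir-24-1 at 20.2, mir-125a at 20.3 and mir-30c-1 at 22.3, and just below it lay mir-133a-2 at 19.8, mir-133a-1 at 19.7 and mir-26a-2 at 19.2. The 8 highest rows held 44.6% of the summed level of the members, in which the near-identical miR-124 rows were each counted.

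The 3 rows of miR-124, the most neuron-typical miRNA, had the highest levels. mir-124-2 ran from 2634 to 10523 normalised counts (median 5235) in PS19 and from 3093 to 8203 (median 5577) in WT. The rows of mir-124-1 and mir-124-3 had means of 5554 each, against 5555 for mir-124-2, and the 2 genotypes overlapped across most of their range. mir-383 followed, with 1928 to 9479 (median 2971) in PS19 and 2275 to 8358 (median 4232) in WT, and its highest PS19 value, in replicate 1, stood well above the next, 4282.

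mir-132, whose mature form follows neuronal activity, ran from 1059 to 5108 normalised counts (median 2897) in PS19 and from 1429 to 6422 (median 3207) in WT. For mir-101a the range was 761.4 to 4959 (median 2368) in PS19 and 886.2 to 7452 (median 2954) in WT. Both genotypes spanned a several-fold range, and neither stood apart for any of these rows. mir-127, from the imprinted region on chromosome 12, had 1152 to 4620 (median 2186) in PS19 and 1002 to 4714 (median 2861) in WT. mir-101b had 650.2 to 4509 (median 1997) in PS19 and 813.3 to 4508 (median 3374) in WT, so that its highest values were nearly equal in the 2 genotypes.

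A hairpin holds the letters of its mature arms, and the precursor row was therefore set against the sum of its mature rows in each library. The ratio was taken as log2 of (precursor + 1) minus log2 of (mature sum + 1). It averaged below 0 for 107 members and above 0 for 16, with a median of -3.87 and a range from -10.67 to 5.19. In terms of means, 32 members were under 1% of their mature sum, 39 were between 1% and 10%, 31 between 10% and 50%, 5 between 50% and 100%, and 16 above 100%. In every library, 104 members lay below their mature sum and 11 lay above it, and the other 8 changed side between libraries. Since most precursor rows were far lower than the mature sum, they cannot hold all reads that were counted for their mature arms. How the counting tool divided reads between a precursor row and its mature rows is not given in the sources used here, and the positions of reads within the hairpins were not analysed here. All ratios and shares therefore compare counted rows and cannot be read as amounts of hairpin and mature molecules. Percentages of the mature sum printed with an SD are means of the percentages of the single libraries, and those without one are ratios of means.

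**Figure D1:**
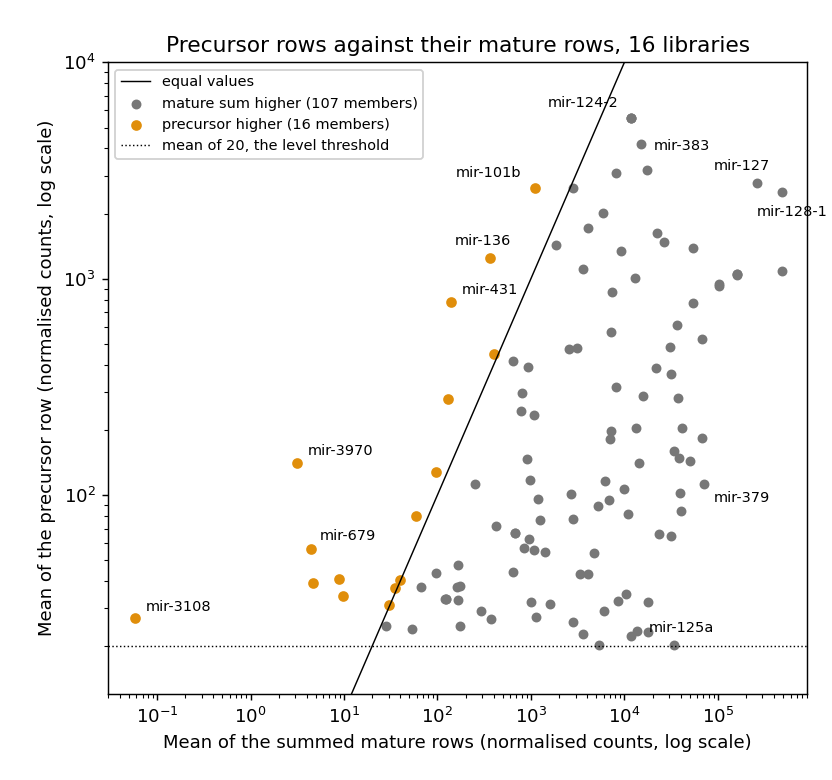
Mean of each precursor row (vertical, normalised counts, log scale) against the mean of its summed mature rows (horizontal, log scale) over 16 libraries, 1 point per member. Orange points mark the 16 members with a mean log2 ratio above 0, the solid line marks equal values and the dotted line the level threshold of 20, and the other 107 members lie to the right of the solid line.

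Among the 113 members with 2 mature rows, the precursor was also compared with the lower of the 2, usually the strand that is not kept. The precursor was above this lower row in all 16 libraries for 65 members and below it in all 16 for 28. For 50 members it lay between the lower and the higher mature row in every library. For 11 members, counting those with a single mature row, the precursor was above the higher mature row in every library.

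The 6 lowest ratios belonged to members with abundant mature forms. The choice of members sets this, because with a precursor mean of at least 20 a very low ratio needs a high mature sum. mir-125a, a relative of the founding miRNA lin-4, was at 20.3 against 34050 for its mature rows, or 0.0595% ± 0.0130 (SD, n = 16 libraries). mir-181b-2 was at 0.133% ± 0.0442 and mir-181b-1 at 0.189% ± 0.0428 of their mature sums (SD, n = 16). mir-379, the first hairpin of a large imprinted cluster, was at 0.161% ± 0.0303, with 112.4 against 71825 normalised counts. mir-30c-2 was at 0.170% ± 0.0437 and mir-30c-1 at 0.187% ± 0.0428 (SD, n = 16). Apart from mir-379, with 62 reads at the lowest, these rows rest on few reads, with 19 at the lowest for mir-181b-1, 10 for mir-125a and 9 for mir-181b-2 and both mir-30c rows.

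The 6 highest ratios belonged to members whose mature rows were low. For mir-3970, 2223 precursor reads were recovered over all libraries against 50 mature reads, and the mean log2 ratio was 5.19. That value depends on the 1 added to each value, as its mature row was at 0 in 1 library. The mature row of mir-3108 held 1 read in a single library and was at 0 in the other 15, against 414 precursor reads, so no fold is given for it. mir-679 had 895 precursor and 70 mature reads, mir-142a, known from blood and immune cells, had 654 and 78, and mir-496a had 639 and 141. All 6 lay above their mature sum in each of the 16 libraries.

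mir-431 was the only one of these 6 with mature rows of moderate level. It ran from 356.9 to 1377 normalised counts (median 511.5) in PS19 and from 293.5 to 2012 (median 565.0) in WT, while its mature sum lay between 61.4 and 283.8 in PS19 and between 54.5 and 260.0 in WT. The lowest precursor value was thus higher than the highest mature sum, and the row stood at 545% ± 120 of the mature sum (SD, n = 16). Both of its arms were read at like levels, with 70.0 for miR-431-5p and 69.1 for miR-431-3p.

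The miR-101 pair stood on opposite sides of equal values, a comparison chosen after the values were seen. mir-101a was at 37.6% ± 5.74 of its mature sum (SD, n = 16) and below it in all 16 libraries. mir-101b was at 236% ± 17.5 (SD, n = 16) and above it in all 16. The precursor rows of the pair were close, at 3081 and 2634 normalised counts, and it was the mature sums that differed, at 8183 and 1119. mir-136, another member of the imprinted region, was likewise above its mature sum in all 16 libraries, with 1248 against 368.5.

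**Figure D2:**
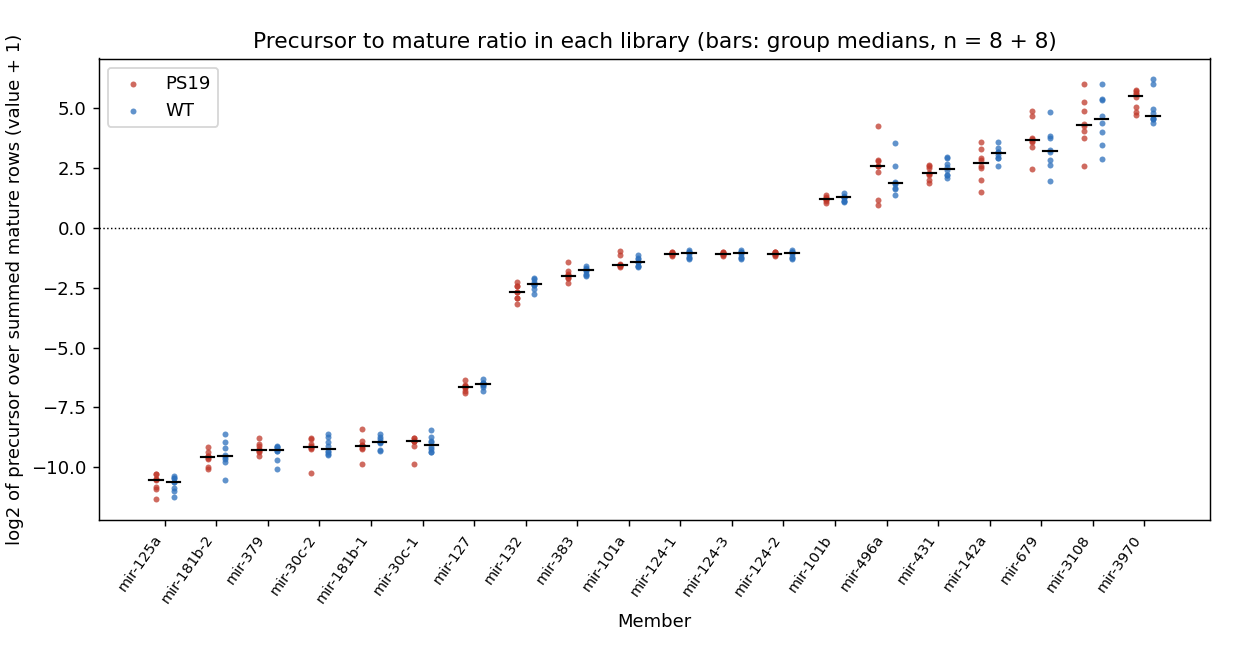
log2 of the precursor row over the summed mature rows (each value + 1) in each library, for the 8 highest members and the 6 members with the lowest and with the highest ratios, red for PS19 and blue for WT (n = 8 each), with bars at the group medians. The means span -10.67 to 5.19, while the SD over libraries within a member had a median of 0.30 and a highest value of 1.01 among all members. The genotypes overlap for all members shown.

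Per base of sequence the picture shifted towards the mature rows, as it must, because every hairpin is longer than its mature arms. The lengths of the hairpin and of all mature rows were at hand for 94 members, of which 13 had a precursor mean above the mature sum. After division by length, 5 of the 94 did, namely mir-136, mir-431, mir-679, mir-496a and mir-142a. Hairpins ran from 62 to 147 bases, with a median of 83.

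In all, 11 mature names had more than 1 member, 24 members together, and they formed 15 pairs of sister loci. Nearly equal rows were found for 8 pairs, whose means lay within 5% of each other with an SD of the log2 ratio under 0.05. These were the 3 miR-124 pairs, the 3 miR-9 pairs, mir-7a-1 with mir-7a-2 and mir-199a-1 with mir-199a-2. mir-124-1 and mir-124-3 had exactly the same value in 12 of 16 libraries and mir-199a-1 and mir-199a-2 in 13. mir-199b, named as a separate miRNA, equalled mir-199a-2 in 15 of 16 libraries, and their annotated 3p forms have the same sequence. The 3 miR-9 rows had means of 1048, 1037 and 1050, and the hairpins printed above share runs of 26 to 33 bases that cover miR-9-5p and bases beyond it. Small differences could still keep a direction, as mir-7a-1 was above mir-7a-2 (fold 1.01 to 1.06) and mir-9-1 above mir-9-2 (1.003 to 1.02) in all 16 libraries. Reads from bases that sister loci share belong to none of them alone, so these rows are uncertain as measures of a single locus.

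Other sister rows differed by more. mir-218-1, from a hairpin that shares a run of 22 bases with its sister, was at 64.8 normalised counts against 364.2 for mir-218-2, a fold of 0.178, and it was lower in all 16 libraries (range of the fold 0.117 to 0.253). mir-128-1 was 2.31-fold mir-128-2, with means of 2515 and 1087, and higher in all 16 libraries (1.95 to 2.57). Yet both loci of each name share 1 main mature row, miR-218-5p at 31327 and miR-128-3p at 486403. mir-125b-1 was 0.530-fold mir-125b-2 and lower in all 16 libraries, mir-181b-1 was 1.37-fold mir-181b-2 and higher in all 16, and mir-129-1 was 1.2-fold mir-129-2 and higher in 15 with 1 equal. The remaining pairs, mir-29b-1 with mir-29b-2 and mir-30c-1 with mir-30c-2, had folds of 1.01 and 0.947 and changed order between libraries.

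**Figure D3:**
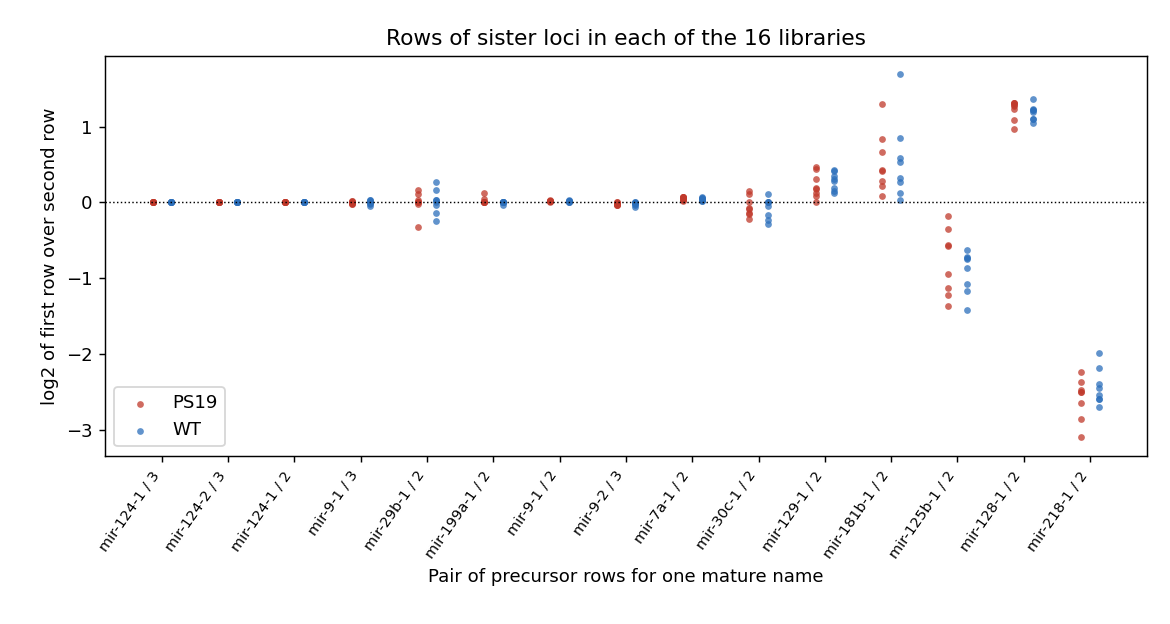
log2 of the first over the second precursor row for the 15 pairs of rows that share a mature name, in each library (red PS19, blue WT, n = 8 each), ordered by the size of the mean difference. The miR-124, miR-9, miR-7a and miR-199a pairs lie close to 0, while mir-218-1 lies below mir-218-2 and mir-128-1 above mir-128-2 in all 16 libraries.

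Precursor and mature rows of a name moved together from library to library. Over the 16 libraries, the SD of the log2 precursor value had a median of 0.67 across members and that of the log2 mature sum 0.65, while the SD of their log2 ratio had a median of 0.30. The ratio varied less than the precursor row itself in 113 members and as much or more in 10. mir-30a was steadiest, with an SD of 0.06 for the ratio against 0.64 for the precursor row, and it stayed at 2.59% ± 0.113 of its mature sum (SD, n = 16). All rows share the depth and size factor of their library, and the part of these in the common spread was not tested. Counting error alone gives a median SD of 0.16 for the ratio, and it exceeded the observed SD in 15 members.

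The annotated length of the main mature form was compared with the ratio, over the 106 members with a listed length. For the 4 members whose higher mature row has 19 or 20 bases, mir-101b, mir-1843b, mir-760 and mir-877, the precursor stood at a median of 83.5% of the mature sum. The median was 8.05% for the 27 members with 21 bases, 6.11% for the 47 with 22 and 1.32% for the 28 with 23 to 26. Classes overlapped, with a range of 0.0595% to 840% at 23 to 26 bases, sister loci share a mature form, and the order is a description with no test. Members with a higher 3p row had a median of 12% (63 members) and those with a higher 5p row 2.67% (58 members).

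**Figure D4:**
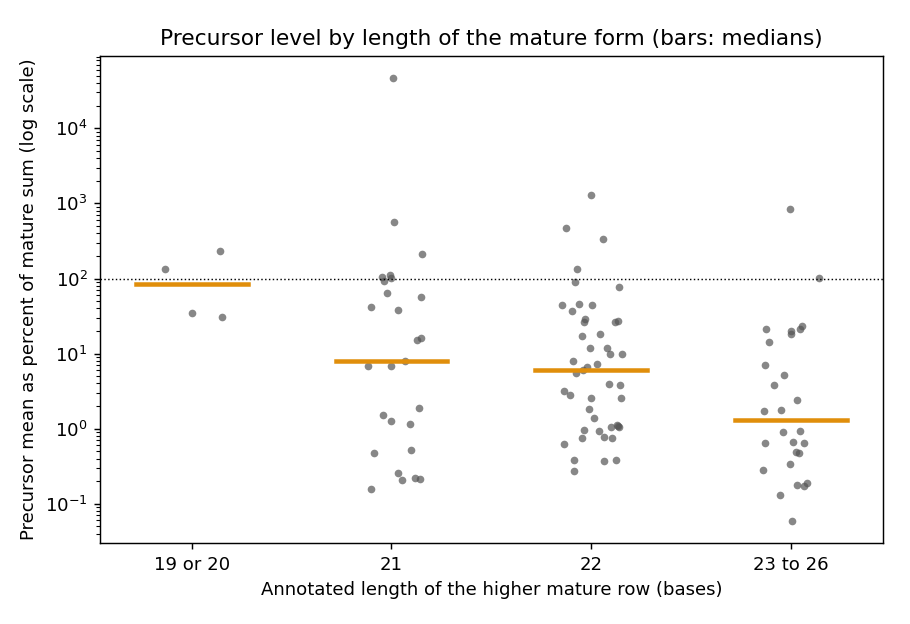
Precursor mean as a percent of the mature sum (log scale) for 106 members, 1 point each, by annotated length of the higher mature row in bases, with bars at the medians. The medians fall from 83.5% at 19 or 20 bases, where there are 4 members, to 1.32% at 23 to 26 bases, and the dotted line marks 100%.

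Chromosome 12 held 27 of the 122 placed members, more than any other chromosome. Of these, 23 lie between chr12:109563692-109743368, the imprinted Dlk1-Dio3 region, whose miRNAs are made from the maternal chromosome. Their precursor rows had a median of 15.3% of the mature sum against 4.53% for the other 100 members, and 5 of the 23 were above it (mir-136, mir-431, mir-341, mir-679 and mir-496a), against 11 of the 100.

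Lists of miRNAs with known cell types were described next. Of 12 neuronal names, 10 had a member, 17 rows in all, and their median was 1.16% of the mature sum with mir-136 alone above it. The vascular rows mir-126a, mir-145a and mir-143 were at 0.972%, 9.84% and 0.285%. The oligodendrocyte rows mir-219a-2 and mir-338 were at 1.58% and 3.22%. Of 7 myeloid and inflammatory names, mir-146b, mir-21a and mir-142a were members, the first pair at 1.08% and 1.13%, and mir-142a was above its mature rows. No red blood cell precursor reached the level threshold. Among miRNAs made outside the usual Drosha and Dicer steps, the mirtron mir-877, an intron-derived hairpin, was at 133% of its mature sum and above it in 9 of 16 libraries, and mir-320, which needs no Drosha, was at 2.76%.

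Genotype was then compared for every member, to ask whether precursors differ in abundance with tauopathy. None of the 123 precursor rows passed an adjusted p of 0.05 in limma, nor did any of the 6024 tested features (0%), and each member had an adjusted p of 0.9998 in limma. At an unadjusted p under 0.05 limma called 0 of the 123 members, against 4% of all features. DESeq2 and edgeR each called 1 member at this unadjusted level (0.813%), against 4.7% and 4.4% of all features. After adjustment they called no member, where DESeq2 called 15 of the 3689 features to which it gave an adjusted p (0.407%) and edgeR 0%. The genotype groups overlapped for every member, where 0.0996% of all features had groups that do not overlap. The p-values are from log2(value + 1), which understates differences of low rows.

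mir-219a-2, from a miRNA that promotes oligodendrocyte maturation, had the smallest p. It ran from 282.3 to 899.8 normalised counts (median 537.6) in PS19 and from 181.8 to 818.7 (median 340.6) in WT. PS19 was higher by 0.55 ± 0.30 (SE) on the log2 scale, with an unadjusted p of 0.0755 in limma. Its main mature row, miR-219a-2-3p, was at 18492 to 52218 (median 36624) in PS19 and 13331 to 46439 (median 23854) in WT, a log2 difference of 0.40 ± 0.27 (limma, unadjusted p = 0.152). mir-338, the other oligodendrocyte row, differed by 0.34 ± 0.29 (limma, unadjusted p = 0.251), and by 0.13 with the code letter as a term. Nearly all of the summed level of the oligodendrocyte marker miRNAs was miR-219a-2-3p itself, so that the sum is no separate measure. The marker miR-338-3p had means of 71.1 in PS19 and 61.3 in WT, a log2 difference of 0.19 ± 0.32 (limma, unadjusted p = 0.556).

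The other members named for a higher mean in PS19 were mir-1306 and mir-423. mir-1306 had 23.4 to 65.5 (median 44.2) in PS19 and 20.5 to 49.0 (median 29.7) in WT, and differed by 0.41 ± 0.25 (limma, unadjusted p = 0.115). For mir-423 the difference was 0.27 ± 0.25 (limma, unadjusted p = 0.282), but 0.16 without WT replicate 7, 0.18 without PS19 replicate 1 and 0.05 with the code letter as a term. Neither row had groups that were apart.

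On the lower side in PS19, mir-324 had 12.99 to 40.8 normalised counts (median 23.7) in PS19 and 17.7 to 60.7 (median 33.5) in WT, a log2 difference of -0.45 ± 0.27 (limma, unadjusted p = 0.108). mir-496a had 10.7 to 71.3 (median 30.0) in PS19 and 18.4 to 72.4 (median 46.5) in WT, a difference of -0.58 ± 0.35 (limma, unadjusted p = 0.119). The top values of the 2 genotypes were nearly equal for mir-496a, and its difference was -0.38 without PS19 replicate 7. With the code letter as a term it was -0.90, and that of mir-324 -0.71. mir-199a-2 and mir-199b, which share nearly all values, differed by -0.48 ± 0.30 each (limma, unadjusted p = 0.125 and 0.128), and by -0.31 and -0.30 without PS19 replicate 6 and by -0.31 each with the code letter as a term. mir-203, the precursor of a miRNA that the study names, had 21.8 to 293.7 (median 112.3) in PS19 and 43.0 to 216.5 (median 119.0) in WT and differed by -0.22 ± 0.44 (limma, unadjusted p = 0.630), and its mature row miR-203-3p by -0.14 ± 0.45 (limma, unadjusted p = 0.758). The precursor row of miR-487b, also named there, had a mean of 10.2 and was no member.

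The lowest log2 difference of any member was that of mir-183, which was chosen after its values were seen. mir-183, of a cluster known from sensory cells, ran from 8.33 to 78.6 normalised counts (median 23.8) in PS19 and from 6.37 to 289.6 (median 54.6) in WT, a log2 difference of -0.97 ± 0.69 (limma, unadjusted p = 0.174). The WT values spanned the whole PS19 range. Its mature row miR-183-5p differed by -0.96 ± 0.65 (limma, unadjusted p = 0.157), and its precursor to mature ratio by -0.01. The summed epithelial marker miRNAs lay between 22.7 and 452.0 in PS19 libraries and between 38.5 and 2108 in WT libraries, and their part in these values was not tested.

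Most members had a lower mean log2 value in PS19. The log2 difference was below 0 in 94 of 123 members (76.4%), against 53.2% of all tested features, and its median was -0.13 against -0.02. This lean was not particular to precursor rows, as 130 of the 184 tested mature rows of the members were also lower, with a median of -0.14. With values scaled to the miRNA total, 77 members were lower, against 45.6% of all features under that scaling. Members share libraries and are not independent, and the summed precursor level, 15.97 ± 0.63 on the log2 scale in PS19 and 16.12 ± 0.60 in WT (SD, n = 8 each), differed by less than its SD (exact permutation test, two-sided, p = 0.633, adjusted p = 0.834 over 4 measures). Of the 17 neuronal rows 15 were lower in PS19, with a median of -0.16 and a smallest unadjusted p of 0.401 in limma. These 17 rows carry only 10 names, and the miR-124 and the miR-9 rows are near-copies of each other, so the count repeats some measurements. DESeq2 and edgeR each put 10 of these 17 lower, where 51.7% and 48.0% of all features were lower. The vascular rows had a median of -0.09 and the myeloid and inflammatory rows 0.02, and none in either list had an unadjusted p under 0.05 in limma.

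The mature rows of the members gave 4 unadjusted calls in limma among 184 tested (2.17%), against 4% of all features, and none after adjustment. All 4 were lower in PS19, where 2.14% of all features were called in that direction. miR-382-3p had 4.16 to 14.9 normalised counts (median 8.67) in PS19 and 6.003 to 24.8 (median 18.6) in WT, a log2 difference of -0.80 ± 0.32 (limma, unadjusted p = 0.0218). miR-877-3p differed by -0.62 ± 0.26 (limma, unadjusted p = 0.0234). miR-199a-3p and miR-199b-3p, 1 sequence under 2 names, differed by -0.63 ± 0.28 and -0.64 ± 0.28 (limma, unadjusted p = 0.0358 and 0.0333). The groups overlapped for all 4.

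The precursor to mature ratio removes what the rows of a name share within a library, and it could be tested for 119 members, the other 4 (mir-142a, mir-679, mir-3108 and mir-3970) having too few mature reads. No ratio passed an adjusted p of 0.05 in limma among 215 tested pairs of any hairpin (0%), where the smallest adjusted p was 0.222. At an unadjusted p under 0.05, 6 of the 119 members were called (5.04%), against 6.51% of all pairs. One of the 6 was higher in PS19 and 5 were lower, where 3.72% of all pairs were called lower. The median difference over the members was -0.01, with 56 above 0 and 63 below.

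For mir-340 the precursor stood at 7.24% ± 1.15 of its mature sum in PS19 and at 5.55% ± 0.669 in WT (SD, n = 8 each). The log2 ratio ran from -4.18 to -3.45 (median -3.76) in PS19 and from -4.30 to -3.84 (median -4.23) in WT, a difference of 0.38 ± 0.11 (SE, limma, unadjusted p = 0.00353, adjusted p = 0.222). The precursor row itself differed by -0.04 and the main mature row, miR-340-5p, by -0.45 on the log2 scale. mir-145a, of smooth muscle, and mir-219a-2 followed with 0.28 ± 0.18 and 0.15 ± 0.08 (limma, unadjusted p = 0.134 and 0.0911). The difference for mir-145a was 0.18 without WT replicate 7 and 0.47 with the code letter as a term.

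mir-382, of the imprinted cluster, stood at 4.36% ± 0.548 of its mature sum in PS19 and at 6.43% ± 1.76 in WT (SD, n = 8 each). Its log2 ratio ran from -4.76 to -4.22 (median -4.55) in PS19 and from -4.70 to -3.47 (median -3.94) in WT, a difference of -0.52 ± 0.16 (limma, unadjusted p = 0.00490, adjusted p = 0.222). All 8 PS19 values thus lay below the WT median. Its main mature row differed by 0.04 and its precursor row by -0.48 on the log2 scale. mir-3064 stood at 40.6% ± 7.86 in PS19 and 52.4% ± 7.36 in WT, a log2 difference of -0.36 ± 0.12 (limma, unadjusted p = 0.00983, adjusted p = 0.352).

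For mir-132 the precursor stood at 15.8% ± 3.37 of the mature sum in PS19 and at 19.7% ± 2.96 in WT (SD, n = 8 each). The log2 ratio ran from -3.18 to -2.26 (median -2.67) in PS19 and from -2.77 to -2.08 (median -2.35) in WT, a difference of -0.33 ± 0.14 (limma, unadjusted p = 0.0310, adjusted p = 0.606). The ranges overlapped between -2.77 and -2.26. miR-132-3p itself differed by 0.01 on the log2 scale and the precursor row by -0.31. The remaining unadjusted calls, mir-324 and mir-541, were at -0.52 ± 0.23 and -0.21 ± 0.10 (limma, unadjusted p = 0.0376 and 0.0455), with mir-541 named after its values were seen.

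**Figure D5:**
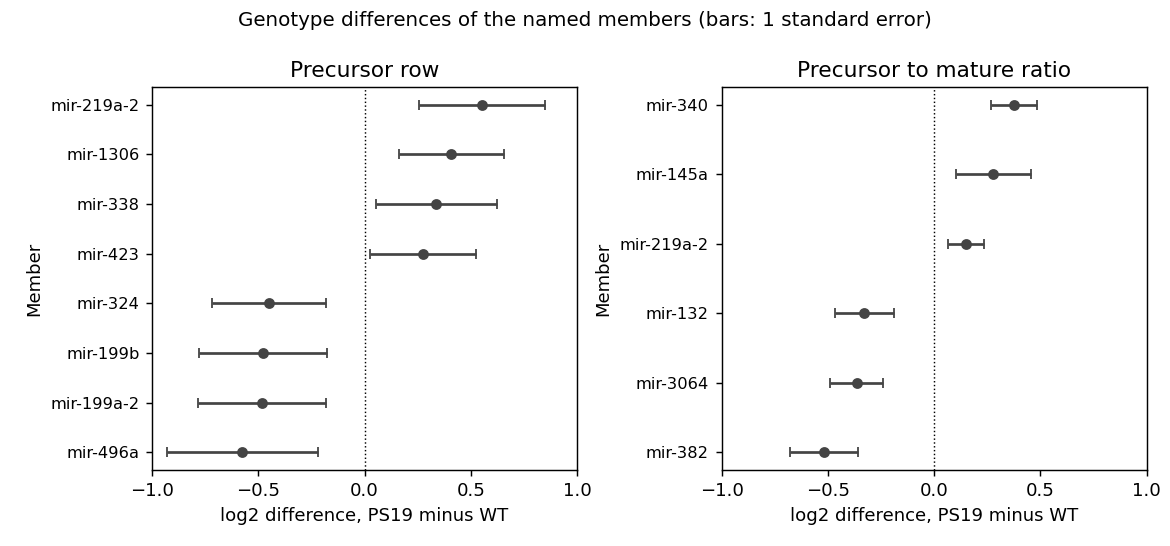
log2 difference between PS19 and WT (PS19 minus WT, points, with bars of 1 standard error from limma, n = 8 each) for the 8 named precursor rows on the left and the 6 named precursor to mature ratios on the right. The rows reach from -0.58 (mir-496a) to 0.55 (mir-219a-2) and the ratios from -0.52 (mir-382) to 0.38 (mir-340), and none passes an adjusted p of 0.05.

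Summed over all members, precursor rows held 3.27% ± 0.307 of the joint precursor and mature signal in PS19 and 3.46% ± 0.161 in WT (SD, n = 8 each). Each mature row was counted once, but near-identical rows of sister loci were each added, so shared reads may be counted more than once. The share lay between 2.88% and 3.91% in PS19 libraries and between 3.22% and 3.70% in WT libraries, so that PS19 held both the lowest and the highest value. The difference of -0.183 percentage points was smaller than the SD in PS19 (exact permutation test, two-sided, p = 0.162, adjusted p = 0.650 over 4 measures). Without PS19 replicate 7, the highest library, it was -0.273 percentage points (exact permutation test, unadjusted p = 0.00932). Leaving out the highest PS19 value must lower the difference, so this p is no separate support for it. With each library left out in turn, the difference ran from -0.273 to -0.126 percentage points. The summed mature level was 20.86 ± 0.62 on the log2 scale in PS19 and 20.92 ± 0.57 in WT (SD, n = 8 each, exact permutation test, two-sided, p = 0.834). Across members, the median log2 ratio was -3.95 ± 0.16 in PS19 and -3.98 ± 0.09 in WT (exact permutation test, two-sided, p = 0.744, adjusted p = 0.834).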

How the data were processed

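Small RNA libraries of the prefrontal cortex (8 PS19, 8 WT, grouped by the genotype in the labels) were examined. The authors aligned single-end reads to mm10 with STAR 2.5.3a inside COMPSRA and normalised with DESeq2 1.42.1. The deposited values are a signal per library, read counts divided by 1 size factor. In each library 100% of values were whole multiples of 1 step (to within 1e-06 reads), and whole reads were recovered with it (13.2 M to 23.1 M reads). In WT replicates 4 and 6 a read is worth within 1% of 1, so that this step is less certain there. How reads shared by features were counted is not given in the sources used here, so totals are sums over features, and intervals of count error do not cover amplification. The authors' deposited mean, log2 fold change, standard error, Wald score, p-value and adjusted p-value were not used, and 0 library columns were left out. Replicates are separate mice per the methods.

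Members were rows named mmu-mir- with a family number under 5000 and a mean of at least 20. Members and lists were chosen with earlier results of these data known. Features with a mean of at least 5 were tested with limma 3.58.1 (R 4.3.3, lmFit, eBayes with trend) on log2(value + 1), with p-values adjusted by Benjamini-Hochberg over 6024 features or 215 ratio pairs, which include all hairpins. Ratio pairs needed a mean of at least 5 in both the precursor row and the sum of its mature rows. A mature row without a locus number was assigned to each locus of its name. Sums and shares of a library were tested with exact permutation of genotype, two-sided, over 12870 assignments (scipy 1.17.1). The fits were tested on simulated data. Named members were the 8 highest by mean, the 6 highest and 6 lowest by mean log2 ratio, the 4 higher and 4 lower by p for the row and 3 and 3 for the ratio, the 3 on each side of the threshold and the precursor rows of miR-203 and miR-487b, which the study names. Alternatives were pseudocounts of 0.5 and 5, other filters and scalings, DESeq2 1.42.0 and edgeR 4.0.16 on recovered reads, the letter of the library code, a replicate block and leaving out each library. Chi-square per degree of freedom between libraries of a genotype was at least 43.5 over 56 pairs, so none was a repeat. Sequences were from RefSeq on GRCm38.p6, the assembly also called mm10.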

Additional observations from a re-analysis of the deposited data

Results flagged for a closer look

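Over 68 sets of 8 libraries, made up of each named member and the summed precursor share in each genotype, 4 had a highest value set apart from the rest by more of the range than Dixon's 95% critical value, where about 3.4 would be flagged by chance at 1 in 20. In PS19, replicate 1 held 3 of them. It stood at 9479 normalised counts for mir-383 against 4282 in the next library (0.688 of the range), at 1377 for mir-431 against 753.9 (0.611) and at 43.7 for mir-3064 against 25.6 (0.585). In WT, replicate 1 stood at 818.7 for mir-219a-2 against 436.5 (0.600).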

How the results depend on the processing

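Adjusted calls of precursor rows, mature rows and ratios stayed at 0 under every alternative run (in DESeq2, 6 mature rows had no adjusted p), and the 14 named differences kept their direction. The unadjusted count of member rows, 0 as reported, was 1 with scaling to the library total (0.813%, against 3.04% of all features under the same setting), 2 with scaling to the miRNA total (1.63% against 2.04%), 1 with DESeq2 and 1 with edgeR (0.813% against 4.7% and 4.4%), and 0 to 5 when single libraries were left out (5 without WT replicate 7, 4.07% against 4.85%, and 4 without PS19 replicate 1, 3.25% against 5.33%). For mature rows the count, 4 as reported, was 7 with scaling to the miRNA total (3.80% against 2.04%), 7 with DESeq2 (3.80% against 4.7%), 2 with the code letter as a term (1.09% against 2.06%) and 1 to 13 when single libraries were left out (13 without PS19 replicate 1, 7.07% against 5.33%, 11 without WT replicate 6 or 7, 5.98% against 4.33% and 4.85%, and 1 without PS19 replicate 7, 0.543% against 3.83%). The ratio count, 6 as reported, was 3 with the letter as a term (2.52%, against 4.19% of all pairs) and 3 to 7 when single libraries were left out, with 3 without WT replicate 5 and without WT replicate 8 (2.52% against 4.65% in both). The difference in precursor share ran from -0.273 to -0.126 percentage points when single libraries were left out. The cause of these moves was not tested.

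With the replicate block, 5 precursor rows, 15 mature rows and 6 ratios were called at an unadjusted p under 0.05 in limma (4.07%, 8.15% and 5.04%, against 6.96% of all features and 6.05% of all pairs). Same-numbered libraries correlated at 0.0446 to 0.456, over 0.1 in 6 of 8 pairs, and 2 of 8 PS19 libraries correlated best with their own number, so the numbers were not taken as pairs. Counting near-identical sister loci once, chosen after seeing the data, changed neither the side of the share test nor the number of members by over 1.5 times. No 2 members were equal in all libraries. The 5 reads of the lowest member set the depth limit for the low rows.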
